A study of Mus musculus and Rattus norvegicus with 4 samples.

Results

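The genes described here are 27 genes for muscle ion channels and the sodium pump, out of 21887 protein-coding genes on the placed chromosomes of the mouse. They were taken from a list of names, drawn up with earlier results of these data known and with no measured value in its rule: a sodium channel, 14 genes for potassium channel pores and their auxiliary subunits, a chloride channel, pacemaker channels, connexins, calcium channels, the sulfonylurea receptors and a sodium pump subunit. MEF2A, a member of the myocyte enhancer factor 2 group of transcription factors, was mapped by ChIP-exo, in which an exonuclease trims the immunoprecipitated DNA back to the protein. The library analysed came from C2C12 cells, a mouse skeletal myoblast line, kept for 48 h in differentiation medium with 2% horse serum. The series has 4 libraries, MEF2A and normal rabbit IgG from C2C12 cells and from primary cardiomyocytes of newborn rats, with 1 library per group. The rat and IgG libraries were not analysed here. With 1 library there is no replicate error and no test between conditions, so every value describes this peak list, and its read depth is unknown. C2C12 cells are an established line that forms skeletal muscle cells, so the cardiac genes among the 27 are read here outside the heart. RNA was not measured in this library, so which of the 27 genes are expressed in these cells is unknown.

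Ion channels and the sodium pump set the membrane potential of a muscle cell. The pump builds the sodium and potassium gradients, inward rectifier potassium and chloride channels hold the cell at rest, sodium and calcium channels carry the action potential and delayed rectifier and transient outward potassium channels end it. Pacemaker channels drive rhythm in the heart, connexins join cells electrically, and ATP-sensitive potassium channels link the potential to the energy state of the cell.

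Each peak went to the protein-coding span nearest to it, the stretch from a gene's first to its last annotated base, within 100 kb. By this rule 4 of the 27 genes had a MEF2A peak (14.8%, exact binomial 95% interval 4.19 to 33.7%), against 7.73% of all protein-coding genes (1691 of 21887). The 4 were Kcna5, Kcnj8, Kcnj12 and Abcc8, with 1 peak each. The other 23 genes (85.2%) had none. In 2 of the 27 genes (7.41%), Kcnj12 and Abcc8, the peak lay inside the span, against 4.57% of all protein-coding genes. Genes with long territories, the length of genome whose peaks would go to a gene, collect more peaks: the share with a peak ran from 1.10% in the lowest of 10 classes of territory to 26.6% in the highest. The 27 genes had a median territory of 85.0 kb, against 45.8 kb for all protein-coding genes. Protein-coding genes in the same classes had a peak in 11.1% of cases, which corresponds to 2.99 of 27 genes. The 4 genes observed were 1.34 times that value, a difference of about 1 gene.

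**Figure D1:**
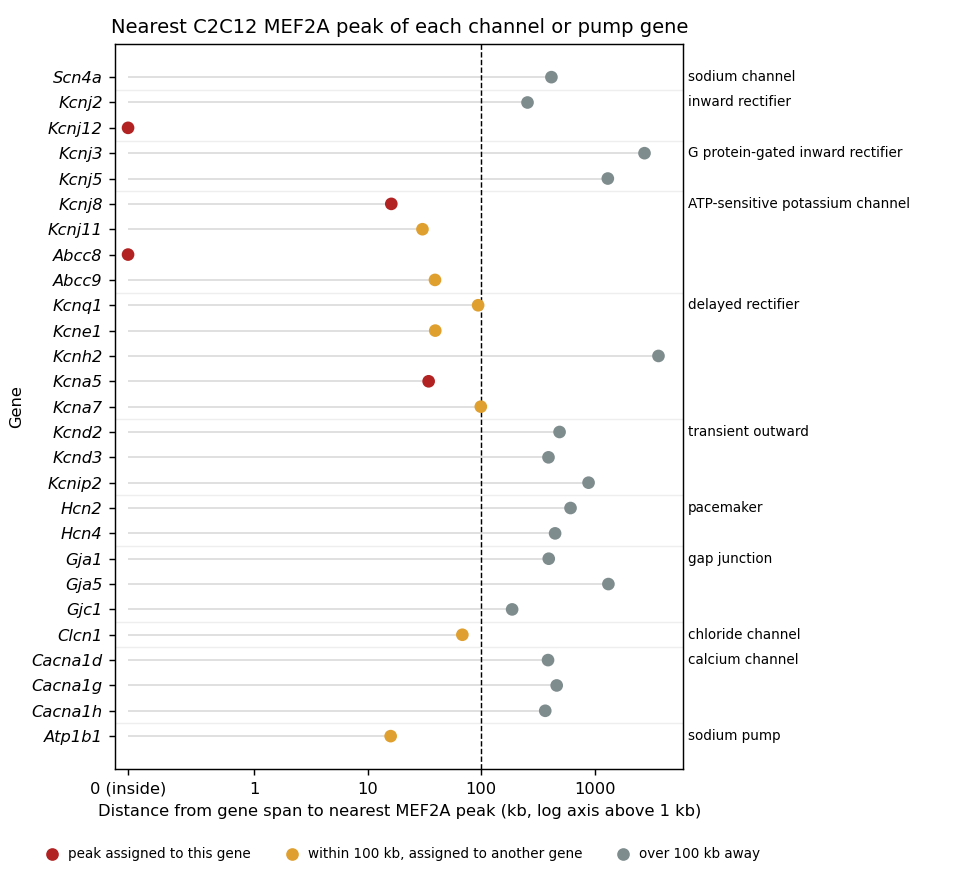
Distance in kb from the span of each of the 27 genes to the nearest C2C12 MEF2A peak (log axis above 1 kb), grouped by role; red points had the peak assigned to them, orange points lay within 100 kb (dashed line) of a peak assigned to another gene, grey points were farther. All 4 ATP-sensitive potassium channel genes lay within 39.2 kb of a peak, and all transient outward, pacemaker, gap junction and calcium channel genes lay over 100 kb from one. Of the 27 genes, 8 (29.6%) lay within 50 kb of a peak and 11 (40.7%) within 100 kb. Of all protein-coding genes, 14.0% lay within 50 kb of a peak and 22.0% within 100 kb.

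A wider view came from the distance of each gene to its nearest peak, whichever gene that peak was assigned to. Within 100 kb of a peak lay 11 of the 27 genes (40.7%, exact binomial 95% interval 22.4 to 61.2%), against 22.0% of all protein-coding genes and 25.4% of genes in the same classes of span length. These 11 genes had 9 distinct nearest peaks, because 2 adjacent pairs of genes have the same nearest peak. The interval counts the genes of these pairs as independent. In 7 of the 11 genes the peak was assigned to another gene that lay closer. The median distance was 367 kb for the 27 genes and 354 kb for all protein-coding genes, while the lower quartile was 39.3 kb against 120 kb. At the limit itself, Kcna7 lay just inside at 99.2 kb and the next gene, Gjc1, lay outside at 187 kb.

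All 4 genes of the ATP-sensitive potassium channels lay within 100 kb of a peak, as did 4 of the 5 delayed rectifier genes described below. Over all protein-coding genes this share was 22.0%. The ATP-sensitive channel genes form adjacent pairs, and both genes of a pair have the same nearest peak, so they are not separate cases. ATP-sensitive channels pair a pore subunit with a sulfonylurea receptor, and the genes of each pair sit side by side. Kcnj8 (pore) and Abcc9 (receptor) are 16.2 kb apart on chromosome 6, and Kcnj11 (pore) and Abcc8 (receptor) are 3.57 kb apart on chromosome 7. The peak at Kcnj8 (mm10, chromosome 6, gene at 142564837 to 142571614) lay at 142548534 to 142548690, with a score of 87.6 and rank 1186 of 2797. The score is the authors' own value per peak, read here as higher for stronger peaks, and its median over the list was 77.0. This peak was downstream of Kcnj8, 16.1 kb beyond the end of its span, and 39.2 kb from Abcc9 (142587862 to 142702766), whose own count is therefore 0. The lactate dehydrogenase gene Ldhb, on the other side of the peak, was 40.6 kb away, about as far as Abcc9. The peak at Abcc8 (chromosome 7, gene at 46104523 to 46180039) lay inside the span at 46131334 to 46131435. It was among the weak peaks of the list, with a score of 54.7, and 87.8% of peaks scored higher. Kcnj11 (46097123 to 46100952) was 30.4 kb from it. Each gene pair had a peak within 39.2 kb of both genes, and neither peak reached a score of 100.

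Of the inward rectifiers that hold the resting potential, Kcnj12 had a peak and Kcnj2 did not. Kcnj12 (chromosome 11, 61022564 to 61073269) held a peak inside its span at 61059751 to 61059874, 37.2 kb from the lower-coordinate end and 13.4 kb from the other. Its score was 56.6, and 81.8% of peaks scored higher. The closest other protein-coding span, Tnfrsf13b, was 66.4 kb away, so this assignment had no near competitor. Kcnj2 lay 256 kb from its nearest peak, which was closer to the adjacent inward rectifier gene Kcnj16 (158 kb) and beyond the limit for both. The G protein-gated inward rectifiers, which slow the heart beat in response to acetylcholine, were far from peaks: Kcnj5 at 1305 kb and Kcnj3 at 2747 kb, where the nearest peak lay inside the calcium channel gene Cacnb4.

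Among the delayed rectifier genes 1 of 5 had a peak, and 4 of 5 lay within 100 kb of one. Over all protein-coding genes the shares were 7.73% and 22.0%. Kcna5 (chromosome 6, 126532551 to 126535555), a voltage-gated potassium channel of heart and other muscle, had the strongest peak assigned to any of the 27 genes. It lay at 126569996 to 126570155 with a score of 138 and rank 708, 34.4 kb upstream of the gene, in the interval between Kcna5 and its paralog Kcna1, which was 66.3 kb away. The peak lay inside the span of an unnamed long noncoding RNA gene, Gm33449 (126564039 to 126587905). Kcne1, a regulatory subunit of the slow delayed rectifier, was 39.4 kb from a peak of score 119 that lay inside Rcan1, the gene for a regulator of calcineurin. Its pore partner Kcnq1 was 94.0 kb from a peak of score 60.2 inside Nap1l4, a nucleosome assembly protein gene. Kcna7 was 99.2 kb from a peak of score 64.0 inside Tulp2. Kcnh2, the rapid delayed rectifier, was the farthest of the 27 genes, at 3648 kb.

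**Figure D2:**
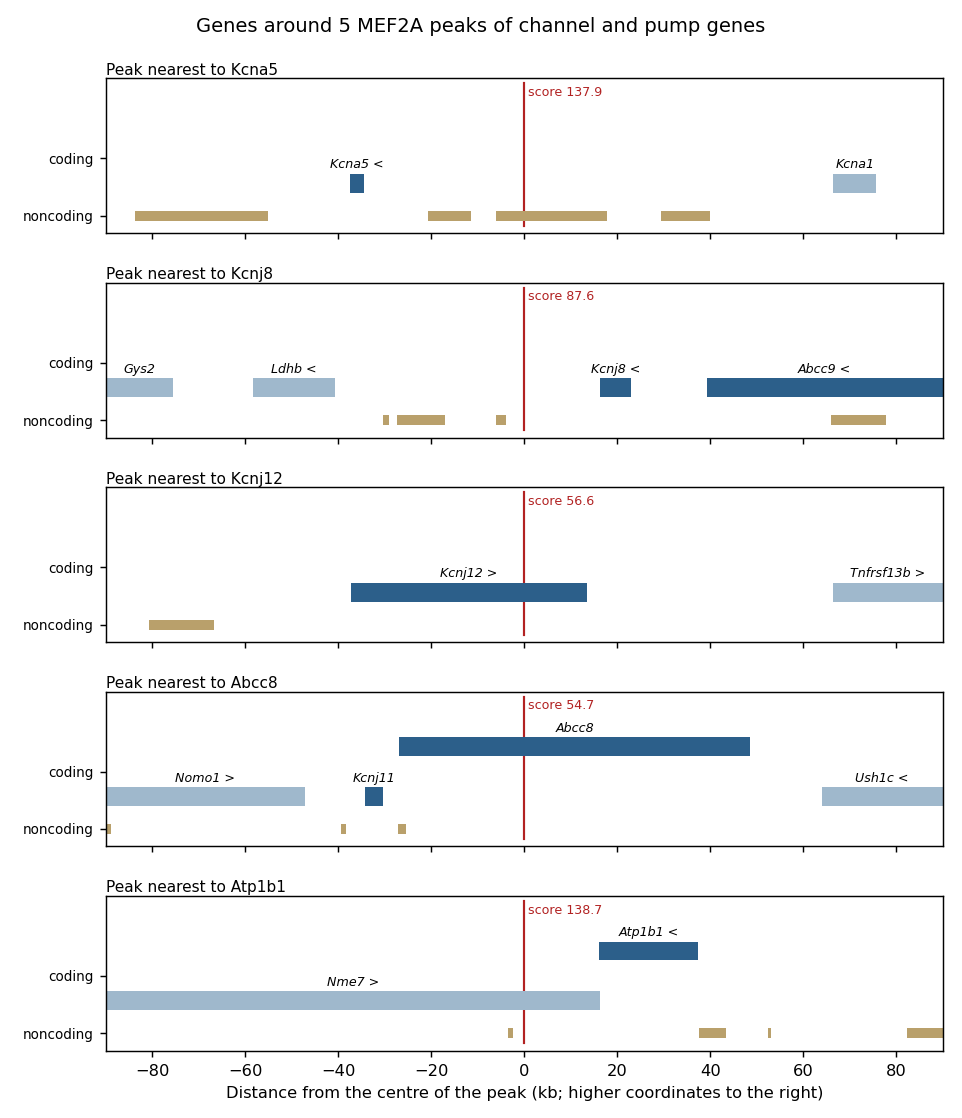
Genes around 5 peaks, drawn in kb from the centre of each peak (red line, with its score): protein-coding spans above (dark blue for the 27 genes, arrowheads for the strand where the promoter table gives it) and noncoding genes below. The Kcna5 peak sits inside a noncoding gene, the Kcnj8 peak lies between Ldhb and Kcnj8, and the Atp1b1 peak lies inside Nme7.

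Atp1b1, a beta subunit of the sodium pump, was the closest gene to a peak that did not receive it. The peak (chromosome 1, 164420932 to 164421164) scored 139 at rank 701, slightly above the Kcna5 peak, and lay 15.9 kb downstream of Atp1b1 (164437099 to 164458355). It was assigned to Nme7, a gene of the nucleoside diphosphate kinase family, because it lies inside that span, and the spans of Nme7 and Atp1b1 overlap by 202 bp. When distance was taken to the ends of spans, Atp1b1 received this peak and the count rose to 5 of 27 (18.5%), against 7.42% of all protein-coding genes. Clcn1, the chloride channel that stabilises the resting potential of skeletal muscle, lay 68.2 kb from a stronger peak (score 274, rank 287) that was assigned to the ephrin receptor gene Epha1 at 10.7 kb. Scn4a, the sodium channel of the skeletal muscle action potential, lay 416 kb from its nearest peak, a peak of score 51.1 inside Tanc2.

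None of the 11 genes for transient outward channels, pacemaker channels, connexins and calcium channels had a peak within 100 kb. Of all protein-coding genes 22.0% had one, and whether these 11 genes differ from that share was not tested. For the transient outward channel the distances were 392 kb for Kcnd3, 490 kb for Kcnd2 and 883 kb for its auxiliary subunit Kcnip2, with the nearest peaks assigned to Cttnbp2nl, Cped1 and Slf2. Kcnd2 and Kcnd3 fall in the highest class of territory, in which 26.6% of genes had a peak. The pacemaker genes Hcn4 and Hcn2 lay 448 and 612 kb from peaks inside Adpgk and Adamtsl5. Among the connexins, Gjc1 was 187 kb from a peak of score 333 inside Dcakd, Gja1 was 394 kb and Gja5 was 1321 kb from a peak of score 532 near Zfp697. The peak nearest to Gja1 had no other protein-coding gene closer to it, and with a limit of 500 kb that peak was assigned to Gja1. The calcium channels were 367 kb (Cacna1h), 388 kb (Cacna1d) and 463 kb (Cacna1g) from peaks assigned to Fbxl16, Mustn1 and Col1a1, the last a collagen gene. Cacna1d has a territory of 451 kb, also in the highest class.

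The scores of the 4 assigned peaks spread over the list, with those of Kcna5 and Kcnj8 above its median of 77.0 and those of Kcnj12 and Abcc8 below. Their median was 72.1 (54.7 to 138), and 1 of 4 reached 100, against 36.8% of the whole list. Their median width was 140 bp, against 144 bp for the list. At a minimum score of 100 only Kcna5 kept a peak (1 of 27, 3.70%, against 3.47% of all genes and 5.09% of genes of like territory). At a minimum of 200 none of the 27 did, against 1.53% of all genes. Some of the 27 genes lay within 100 kb of their nearest peak. Of the 9 distinct peaks nearest to those genes, the highest-scoring was the peak near Clcn1.

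**Figure D3:**
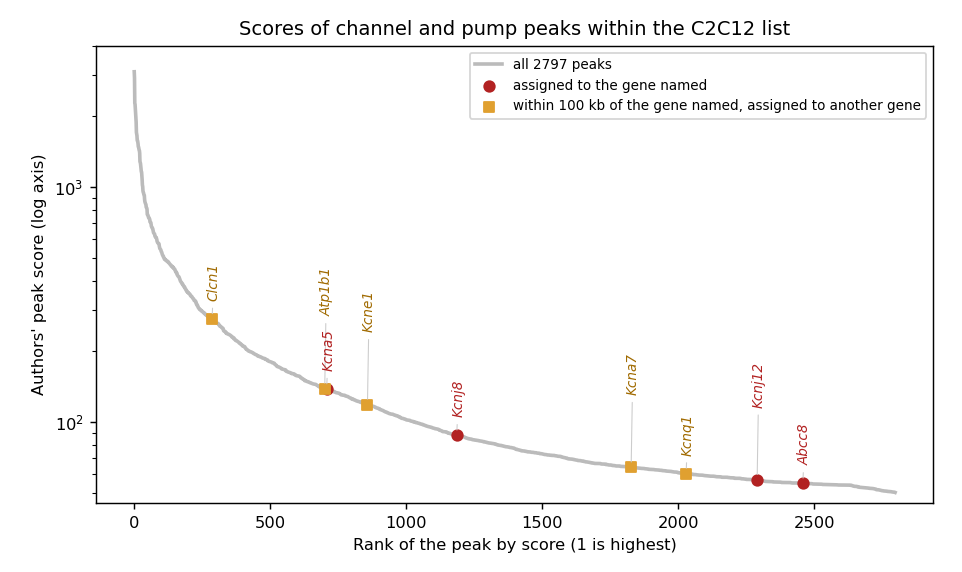
The authors' score (log axis) of every C2C12 peak against its rank (grey), with the 4 peaks assigned to one of the 27 genes in red. In orange are 5 further peaks, each the nearest peak of one of the 27 genes and within 100 kb of it. Each point is labelled with that gene. The red points run from score 138 at rank 708 to 54.7 at rank 2458, and the Clcn1 neighbour at rank 287 is the highest of the marked points.

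Other genes of the same channel, connexin and pump families were read alongside, as a list taken by gene symbol. Of these 157 genes, 13 had a peak (8.28%, exact binomial 95% interval 4.48 to 13.7%), close to the 7.73% of all protein-coding genes and below the 10.8% of genes of like territory. Their intervals overlapped with that of the 27 genes, and no difference between the lists was tested. Among the 13 were 5 of 23 calcium channel genes (21.7%), 5 of 80 potassium channel genes (6.25%) and 1 of 2 pacemaker genes. Connexin and pump-related genes gave 1 of 17 and 1 of 14. None of the 13 sodium channel and 8 chloride channel genes had a peak. Territory was not taken into account in these shares. Within 100 kb of a peak, assigned to any gene, lay 31 of the 157 genes (19.7%). The share was 25.5% in genes of the same classes of span length and 40.7% in the 27 genes. Cacng6, a gamma subunit gene of the calcium channel family, had a peak of score 255 at 11.3 kb. Kcnn2, a calcium-activated potassium channel, held a peak of score 232. Kcnk6, a potassium channel with tandem pore domains, had a peak of score 125 at 1.29 kb. Cacna2d1, a calcium channel subunit of the skeletal muscle triad, held 2 peaks with a top score of 93.4. Cacna1a (78.7, at 2.02 kb), the connexin gene Gjd2 (71.7, at 28.6 kb), Cacnb4 (66.2, inside the span) and Kcnt2 (61.7, at 27.8 kb) had weaker ones.

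**Figure D4:**
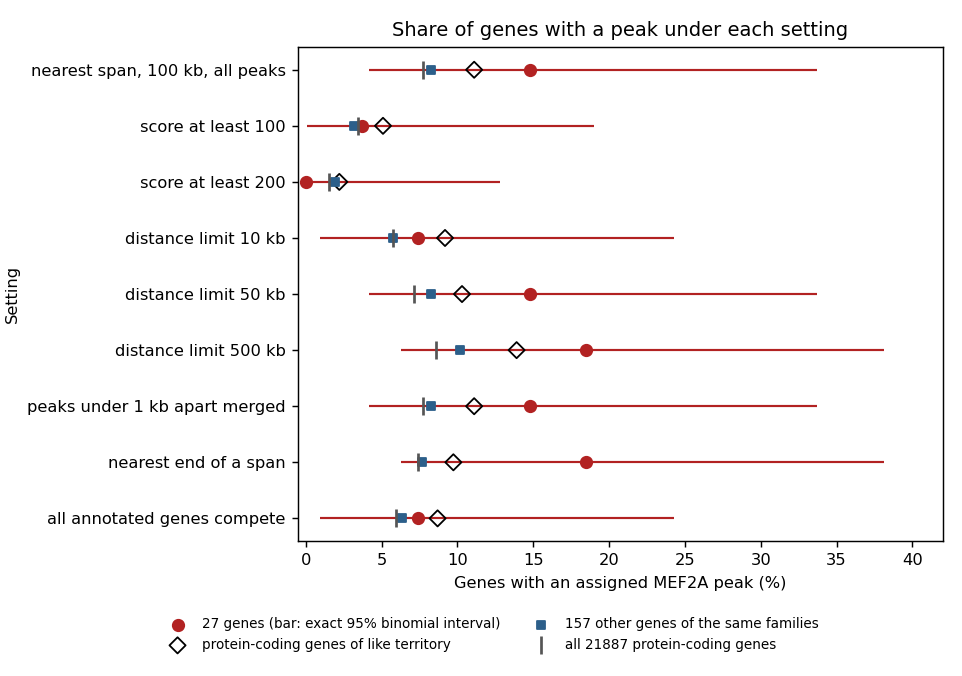
Percent of genes with an assigned MEF2A peak under the setting used here (top) and 8 others: the 27 genes (red, with exact 95% binomial interval), protein-coding genes of like territory (open diamonds), 157 other genes of the same families (blue squares) and all 21887 protein-coding genes (grey ticks). The interval of the 27 genes includes the diamond in every setting, and the red point lies above it in 5 settings and below it in 4. Merging close peaks repeats the values of the top setting and is not a separate case.

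Whether the 27 genes stood above or below genes of like territory depended on the setting. The ratio of 1.34 fell to 0.728 at a minimum score of 100, to 0.807 with a limit of 10 kb, where Kcnj12 and Abcc8 remained, and to 0.853 when noncoding genes competed for peaks. In that last setting the Kcna5 peak went to Gm33449 and the Kcnj8 peak to the long noncoding RNA gene Gm38920, 3.82 kb from it. The ratio rose to 1.90 when distance was taken to the closer end of each span, with 5 genes observed and 2.63 corresponding to like territory. For the lower ratios, in the order given, 1, 2 and 2 genes were observed. Like territory corresponded to 1.37, 2.48 and 2.35 genes, so these ratios rest on very few genes. The share of all protein-coding genes with a peak was 5.75% with the 10 kb limit and 5.96% with noncoding genes competing, where 2 of the 27 genes (7.41%) had one in each case. Limits of 50 kb and 500 kb gave 4 and 5 of the 27 genes, against 7.13% and 8.61% of all protein-coding genes. In genes of like territory the shares were 10.3% and 13.9%, which gave ratios of 1.44 and 1.34.

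Promoter sequence was available for 20 of the 27 genes, as windows of 300 bases from 250 before to 50 after an annotated start site (RefSeq, GRCm38.p6, the assembly behind mm10). No window was listed for Abcc8, Cacna1g, Cacna1h, Gjc1, Kcne1, Kcnj11 and Kcnq1. No MEF2A peak overlapped any of the 21 windows of these 20 genes. Of all 32851 windows 99 (0.301%) overlapped a peak, so a count of 0 in 21 windows does not set these genes apart. The closest was the Kcnj12 peak, 5.68 kb from the window of that gene, followed by the Kcnj8 peak at 22.9 kb and the Kcna5 peak at 34.2 kb. Kcnj12 is on the plus strand, and its peak lay 37.2 kb from the lower-coordinate (5′) end of the span. The Kcnj12 window therefore belongs to a start site inside the span, not at its 5′ end. The MEF2 consensus, the AT-rich site that MEF2 proteins bind, was searched as letters. It reads the same on both strands, so a single pass covers both. It was found in 2 of the 21 windows, those of Clcn1 and Abcc9, while 3.19% of all 32851 promoter windows hold it. Both windows are shown because they hold the letters of the factor's site without a listed peak, with the consensus in capitals.
Clcn1, chr6:42286435-42286734, plus strand: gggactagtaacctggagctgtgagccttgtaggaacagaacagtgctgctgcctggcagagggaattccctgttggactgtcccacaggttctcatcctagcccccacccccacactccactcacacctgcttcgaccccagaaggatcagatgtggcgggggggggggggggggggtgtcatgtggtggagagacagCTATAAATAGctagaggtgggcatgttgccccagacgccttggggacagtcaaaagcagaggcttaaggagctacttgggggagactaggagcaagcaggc
Abcc9, chr6:142702225-142702524, minus strand: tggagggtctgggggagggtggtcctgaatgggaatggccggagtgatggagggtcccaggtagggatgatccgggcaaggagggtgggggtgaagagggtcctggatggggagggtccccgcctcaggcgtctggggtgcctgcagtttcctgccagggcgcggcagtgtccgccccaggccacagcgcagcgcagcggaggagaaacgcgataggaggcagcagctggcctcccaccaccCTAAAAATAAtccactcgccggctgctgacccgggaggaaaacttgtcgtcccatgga
In Clcn1 the letters lie at positions 200 to 209 of the window, before the start site, and in Abcc9 at positions 243 to 252, across the start site, counting from 1 at the 5′ end of the window. The nearest peak was 97.3 kb from the Clcn1 window and 154 kb from the Abcc9 window. A match of letters is not a bound site, and a peak list holds only peaks past the authors' threshold. The sequences under the peaks themselves are not shown, since no genome sequence was used.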

How the data were processed

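MEF2A-bound DNA from sonicated nuclei was made into ChIP-exo libraries with a gel size selection, per the labels' protocols. Tools named without settings in the submitters' processing notes are MACS 1.4.2, BWA 0.5.9, CASAVA 1.7.0, SAMtools and Picard. The sources used here do not give the control used in peak calling. The authors deposited 1 peak list per MEF2A library, with a position and a score per peak and no header. The scale of the score is not stated, so it was used only to rank and filter peaks within the C2C12 list, and read depth is unknown. Deposited starts count from 0, and 1 was added to each (mm10).

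Genes came from the RefSeq table of GRCm38.p6, and all 27 symbols matched. Each of 2797 peaks went to the closest span of a protein-coding gene, up to 100 kb away. A peak inside a span has distance 0, and a peak in several spans counted for each. This placed 2306 peaks (82.4%). Assignment by proximity does not show regulation. Territories were sorted into 10 classes, and the share in like genes is the mean over the 27 genes of the share in their class. No test was run, and binomial intervals (exact, Clopper-Pearson) treat genes as independent. Assignment and territories were checked on simulated peaks. Strand came from the promoter table.

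The genes, the wider list and the settings were chosen with earlier results of these data known. Named are all 27 genes, the gene that takes a nearest peak, adjacent channel or pump genes and the 10 further family genes with the highest scores, some of which are not reported here. Ldhb, Tnfrsf13b, Gm33449 and Gm38920 were named after their values were seen. The software was scipy 1.17.1, pandas 2.3.3, numpy 2.4.6 and matplotlib 3.10.9 under Python 3.11.15.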

Additional observations from a re-analysis of the deposited data

How the results depend on the processing

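Of the 8 other settings, a limit of 50 kb and merging peaks under 1 kb apart left 4 genes with 4 peaks, and a limit of 500 kb and the nearest end of a span gave 5 genes with 5 peaks. A minimum score of 100 left 1 gene and 1 peak, and 5 of the 157 further family genes. A minimum of 200 left 0 genes, 0 peaks, a ratio to genes of like territory of 0 and 3 further family genes. In that setting like territory corresponded to only 0.595 of the 27 genes. A limit of 10 kb left 2 genes with 2 peaks, and competition from noncoding genes also left 2 genes with 2 peaks. By construction, fewer peaks enter the settings with a minimum score, shorter distances the 10 kb limit and more competing genes the noncoding setting. Merging close peaks can hardly change which genes have a peak, so its unchanged count carries no information on stability. Over all 8 settings the ratio ran from 0 to 1.90, and the further family genes with a peak ran from 3 to 16. No replicate shows which weak peaks recur. No paired analysis was possible because there is only 1 library in each group.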
